A study of Oryctolagus cuniculus with 35 samples.

Results

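Ceftaroline alone was compared with saline in rabbits with pneumonia: the lungs of 7 New Zealand rabbits given ceftaroline-fosamil, a cephalosporin antibiotic, at 20 mg/kg into the muscle were set against the lungs of 7 given NaCl. The comparison was taken whole, as all library columns of these 2 groups, and comprised 14 of the 35 libraries of the series. It was described over the 9614 of 23669 genes that reached at least 10 normalized reads in at least 7 of the 14 libraries. Every rabbit of both groups carried pneumococcal pneumonia and underwent adverse mechanical ventilation, so the NaCl rabbits were infected and ventilated controls and not healthy ones. Both treatments were given 4 h after the bacteria, and the lung was sampled when the rabbit was autopsied at 24 h, or earlier if it had died. The labels do not give which rabbits died early, their age or the bacterial strain. A level below is the number of reads of a gene divided by the size factor of its library, as deposited. A log2 fold change is ceftaroline over NaCl from limma on log2(level + 1), and a gene was called when its p, adjusted by Benjamini-Hochberg, was under 0.05.

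Pneumococcus in the alveoli is sensed by macrophages and epithelial cells, which release cytokines and chemokines and draw neutrophils out of the blood. Neutrophils bring granule proteins and proteases that act on bacteria and can also damage the alveolar wall, and mechanical stretch adds to this injury. A cephalosporin acts on the synthesis of the bacterial cell wall, and inflammation resolves as macrophages clear dying neutrophils and the epithelium is repaired. The design asks how lung gene expression differs when the bacteria are treated with an antibiotic and nothing else.

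The libraries of the groups were not alike apart from treatment. Recovered reads ran from 7611988 to 14948358 in NaCl (median 9527492) and from 11499403 to 33209729 in ceftaroline (median 15675806), a difference in depth with a two-sided exact permutation p of 0.00699. The titles of 3 NaCl libraries (replicates 3, 4 and 5) end in PG, a mark that the labels do not explain and that no ceftaroline title carries. These 3 stood apart from the other 4 NaCl libraries: on the first principal component, with 29.3% of the variance, they lay at 38.1 to 55.4 and the other 4 at -38.5 to -27.7, while ceftaroline libraries spanned -39.4 to 58.5. Between the PG libraries and the other NaCl libraries limma called 1677 genes (17.4% of those tested), although both received the same treatment by their labels. Because no ceftaroline library carries the mark, mark and treatment cannot be told apart where the PG libraries are the controls. Values are against all 7 NaCl libraries unless stated. Where the log2 fold change of a gene or the median of a list turned direction or differed by over 1.5-fold between the 2 kinds of control, both values or the PG value follow it, named unmarked and PG. The surfactant gene SFTPB, a marker of alveolar type II cells, was present in every library of both groups, at 12063 to 90459 (median 32985) in NaCl and 8567 to 99238 (median 19750.5) in ceftaroline. In pieces of lung, fewer cells of a type and less RNA per cell cannot be told apart.

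No gene passed the limma threshold, with 0% of 9614 called; the lowest adjusted p was 0.120, shared by 56 genes. At an unadjusted p under 0.05 there were 1760 genes, 952 with a higher level under ceftaroline (9.9%) and 808 with a lower level (8.4%). The median log2 fold change of all tested genes was 0.02, and 51.9% of them had a higher mean in ceftaroline. The groups did not overlap at all in 37 genes, 19 of them higher in every ceftaroline library (0.198%) and 18 lower in every one (0.187%). A log2 difference of 1 or more in size was seen in 509 genes, against a median standard error of 0.254. On the recovered reads of the same libraries, edgeR's quasi-likelihood test called 0 genes, with 1881 at an unadjusted p under 0.05 and a lowest adjusted p of 0.102. DESeq2 on those reads called 501 genes, 249 higher (2.33% of 10674) and 252 lower (2.36%). Of these calls, 471 were among the genes limma tested and 462 had an unadjusted limma p under 0.05.

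The absence of limma calls turned on which NaCl libraries were used. Without NaCl replicate 1, limma called 189 genes, 106 higher (1.1%) and 83 lower (0.863%), and DESeq2 on all 14 libraries called 151 of these. Leaving out NaCl replicate 6 gave 1 call, and leaving out any of the other 12 libraries gave 0. Against the 4 unmarked NaCl libraries limma called 0 genes (0%), with 1630 at an unadjusted p under 0.05. Against the 3 PG libraries it called 635 genes higher (6.6%) and 679 lower (7.06%). The plot of fold change against p shows how the named genes lie among all genes tested.

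**Figure D1:**
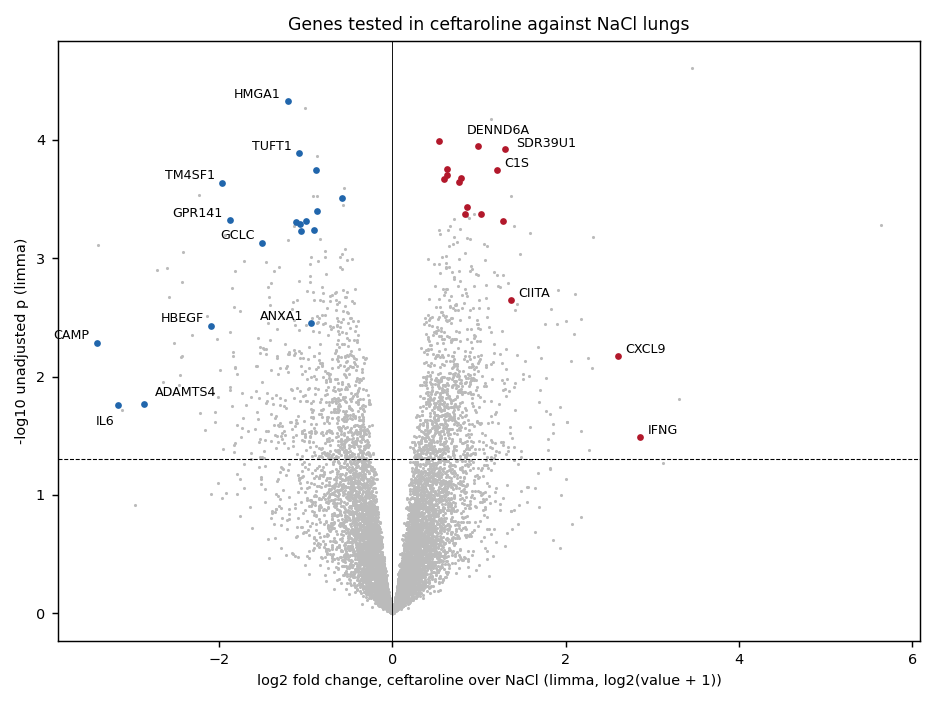
Each point is 1 of 9614 genes; the x axis is the log2 fold change of ceftaroline over NaCl and the y axis is -log10 of the unadjusted limma p, with a dashed line at 0.05. Coloured points are the 24 leading genes and 10 list members, red where higher and blue where lower under ceftaroline; IL6 and CAMP show large differences at modest p, and HMGA1 a smaller one at a lower p.

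The 12 genes with the lowest p among those with a higher level under ceftaroline were GLOD4, DENND6A, SDR39U1, SFT2D2, C1S, GTF3C2, PRKDC, MICU2, TMEM106B, SRBD1, NAT1 and LEPROT. Each shared the adjusted limma p of 0.120, none passed, and all 12 were called by DESeq2. Of the 24 leading genes in both directions, limma called 23 without NaCl replicate 1, and the exception was LEPROT (adjusted p = 0.0513). The 24 were picked by their p in these same libraries, so neither set of calls is separate support for them. The log2 fold changes of the 12 higher genes ran from 0.54 (GLOD4) to 1.30 (SDR39U1, with 1.02 unmarked and 1.68 PG). GLOD4, a member of the glyoxalase domain family, stood at 1031 to 1375 (median 1124) in NaCl and at 1598 to 1873 (median 1741) in ceftaroline, a log2 fold change of 0.54 (SE 0.10). Every ceftaroline library lay above every NaCl library for GLOD4, and the same held for SFT2D2, GTF3C2, MICU2 and TMEM106B. SFT2D2 is named for a yeast protein of Golgi transport, GTF3C2 is a subunit of the factor that recruits RNA polymerase III, MICU2 regulates calcium entry into mitochondria, and TMEM106B is a lysosomal membrane protein. MICU2 had a level of 662 ± 99.5 in NaCl and 1003 ± 125 in ceftaroline (mean ± SD, n = 7), and GTF3C2 of 366 ± 32.4 and 574 ± 99.0. These 5 genes had nearly the same difference against both kinds of NaCl library; for TMEM106B it was 0.77 against the 4 unmarked and 0.77 against the 3 PG libraries.

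PRKDC, the catalytic subunit of DNA-dependent protein kinase used in repair of DNA breaks, stood at 172 to 322 (median 199) in NaCl and at 307 to 443 (median 383) in ceftaroline. All 7 ceftaroline libraries lay above the NaCl median, and the groups overlapped only through NaCl replicate 1. DENND6A, which acts on Rab proteins in membrane traffic, was at 249 to 579.9 (median 285) in NaCl and 453 to 831 (median 670.1) in ceftaroline, with a log2 fold change of 0.98. The overlap of the groups for DENND6A came from the same library. NAT1, an arylamine acetyltransferase with a closely similar gene copy between which reads could be split, and LEPROT, which lowers surface receptors for leptin and growth hormone, had log2 fold changes of 0.84 (SE 0.19) and 1.02 (SE 0.23).

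Among the 12 leading genes with a lower level were HMGA1, TUFT1, NLE1, TM4SF1, SELENOS, PXN, GPR141, DQX1, PURB, KLHL21, RRP9 and EHD4. All 12 had an adjusted limma p of 0.120 and were called by DESeq2. HMGA1, an architectural chromatin protein of growing cells, was at 159 to 339.8 (median 255) in NaCl and 71.3 to 144 (median 129.9) in ceftaroline, a log2 fold change of -1.20 (SE 0.21). The groups did not overlap for HMGA1, nor for TUFT1, NLE1, SELENOS, PXN and PURB. NLE1 and RRP9 take part in ribosome assembly and ribosomal RNA processing, and their log2 fold changes were -0.88 and -0.91. PXN, the focal adhesion protein paxillin, was at 897 ± 262 in NaCl and 482 ± 89.9 in ceftaroline (mean ± SD, n = 7). Within NaCl, PXN was at 587 to 810 in the unmarked libraries and at 1054 to 1236 in the PG libraries, so its difference was larger against PG. SELENOS, a selenoprotein of the endoplasmic reticulum that handles misfolded proteins, was at 3332 ± 546 and 2213 ± 217. TM4SF1, a tetraspanin-like membrane protein of endothelial and epithelial cells, had the largest difference of the 24 at -1.96 (SE 0.41): it was at 5326 to 32188 (median 20491) in NaCl and at 2599 to 7262 (median 3630.0) in ceftaroline. The 3 PG libraries had the highest TM4SF1 levels of all 14, and its log2 fold change was -1.35 without them and -2.77 against them alone. GPR141, an orphan G protein-coupled receptor, was at 134 to 477 (median 204) in NaCl and 27.3 to 229.9 (median 54.1) in ceftaroline, with every ceftaroline library other than replicate 6 below every NaCl library.

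**Figure D2:**
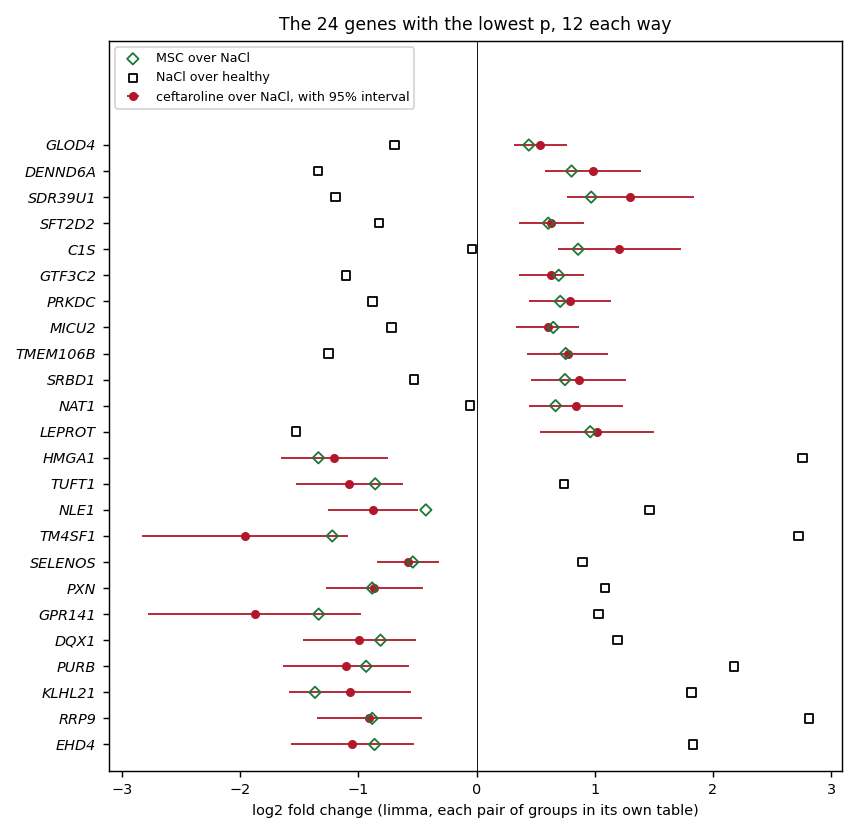
The 24 leading genes, with the log2 fold change on the x axis: ceftaroline over NaCl with its 95% interval (circles), MSC over NaCl (diamonds) and NaCl over healthy (squares). HMGA1 lies at -1.20, -1.34 and 2.76; the 3 contrasts share the NaCl libraries, so the positions are shown as values only.

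The same genes are given beside the disease and the MSC contrasts of the series, which use the same 7 NaCl libraries. Some MSC titles and a healthy title also end in PG, and other healthy titles end in PD, which the labels do not explain either. The mark is thus spread differently over the groups in each contrast. Healthy rabbits had no pneumonia and received NaCl, and MSC rabbits had pneumonia with ventilation and received human umbilical cord-derived stromal cells instead of ceftaroline. Of 9545 genes, 2836 (29.7%) were called higher and 2952 (30.9%) lower in NaCl than in healthy lungs, and limma called 0 of 9446 (0%) between MSC and NaCl, with 1672 at an unadjusted p under 0.05. HMGA1 was 2.76 higher on the log2 scale in NaCl than in healthy lungs (adjusted p = 3.85e-06), -1.34 with MSC and -1.20 with ceftaroline. GTF3C2 was at -1.10, 0.69 and 0.63 in the same order, and LEPROT at -1.53, 0.96 and 1.02. C1S and NAT1 had disease values near 0, of -0.04 and -0.06, beside ceftaroline values of 1.21 and 0.84. NLE1 was at -0.43 with MSC and -0.88 with ceftaroline; that difference was not tested.

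C1S and C1R, the serine proteases of the first complement component, were both higher under ceftaroline. C1S was at 1825 to 4179 (median 2507) in NaCl and 4022 to 8882 (median 4921) in ceftaroline, a log2 fold change of 1.21 (SE 0.24, limma adjusted p = 0.12). C1R was at 1941 to 7912 (median 3594) in NaCl and 6184 to 12641 (median 10671) in ceftaroline, a log2 fold change of 1.28 (SE 0.29, limma adjusted p = 0.12). In both genes all 7 ceftaroline libraries lay above the NaCl median, and NaCl replicates 1 and 6 were the highest of their group. Neither passed limma; DESeq2 called both (adjusted p = 0.00221 and 0.012), and C1R had values of 0.87 unmarked and 1.82 PG. Of the 13 tested coagulation and complement genes 6 had a higher mean, 4 were higher and 4 lower at an unadjusted p under 0.05, and the list's median was -0.26 (-0.01 unmarked and 0.35 PG), so neither members nor the 2 kinds of control gave 1 direction.

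Among the inflammatory cytokines the group means hid wide spread. IL6, the cytokine that drives the acute phase, was at 1812 to 44787 (median 17647) in NaCl and 26.2 to 10709.8 (median 3676) in ceftaroline, a log2 fold change of -3.17 (SE 1.19, limma adjusted p = 0.192). All 7 ceftaroline libraries lay below the NaCl median; replicates 7, 3 and 5 were lowest, and NaCl replicates 1, 5 and 6 fell inside the ceftaroline range. The log2 fold change of IL6 was -3.00 against the unmarked and -3.40 against the PG libraries. CXCL8, a neutrophil chemokine, was at 22427 to 263767 (median 27284) in NaCl and 2788 to 224945 (median 15825) in ceftaroline (log2 fold change -1.76, SE 0.92, with -2.66 unmarked and -0.56 PG). CSF3, the growth factor of neutrophils, had a log2 fold change of -1.62 (SE 1.19), and IL1B of -0.81 (SE 0.82); both were lower than the unmarked NaCl libraries (-3.10 and -1.70) and not lower than the PG libraries (0.34 and 0.39). TNF, with a log2 fold change of 0.28 (SE 0.85), was -1.06 against the unmarked and 2.07 against the PG libraries, and edgeR gave it a negative value. The anti-inflammatory cytokine IL10 was at -0.29 (SE 0.95, with -1.34 unmarked and 1.11 PG), with a positive value in edgeR and DESeq2. Its level was 1264 in ceftaroline replicate 6, 13.4 to 156 in the other ceftaroline libraries and 14.4 to 346 in NaCl. None of these genes passed. Over the 11 tested cytokines the median was 0.11, with 6 higher means, but -1.06 against the unmarked and 1.30 against the PG libraries. Over 16 chemokines it was 0.14, -0.86 and 1.06.

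Neutrophil genes were lower on the median, unevenly across rabbits. CAMP, the cathelicidin of neutrophil granules, was at 6994 to 41352 (median 15815) in NaCl and 123 to 14581 (median 3469.6) in ceftaroline, a log2 fold change of -3.41 (SE 1.04, limma adjusted p = 0.149). It was at 123 to 278 in ceftaroline replicates 3, 5 and 7 and inside the NaCl range in replicates 2 and 6. LTF, lactoferrin of the secondary granules, had a log2 fold change of -2.46 (SE 0.86, with -2.08 unmarked and -2.96 PG) and S100A8, the calprotectin subunit, of -1.26 (SE 0.70, with -1.82 unmarked and -0.52 PG). Of the 26 neutrophil markers listed, 11 could be tested: 9 had a lower mean, 3 at an unadjusted p under 0.05, and the median log2 fold change was -1.10, beside 0.02 over all genes. None was called by limma or DESeq2. The median was -1.52 against the unmarked NaCl libraries and 0.01 against the PG libraries. The mean log2 level of these markers, relative to all 14 libraries, was -1.64, -1.60 and -2.36 in ceftaroline replicates 3, 5 and 7 and 0.03 to 0.99 in the other 4; NaCl libraries lay between -0.89 and 1.36. Replicates 3, 5 and 7 also had the 3 lowest IL6 levels and the 3 highest levels of SLC34A2, a phosphate carrier of type II cells, among the 14 libraries. SLC34A2 was at 405 to 5067 (median 1189.6) in NaCl and 191 to 19056 (median 1591) in ceftaroline, and its log2 fold change of 0.48 (SE 1.05, with 0.94 unmarked and -0.14 PG) was no larger than the spread. Whether cell content moved these genes was not tested.

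**Figure D3:**
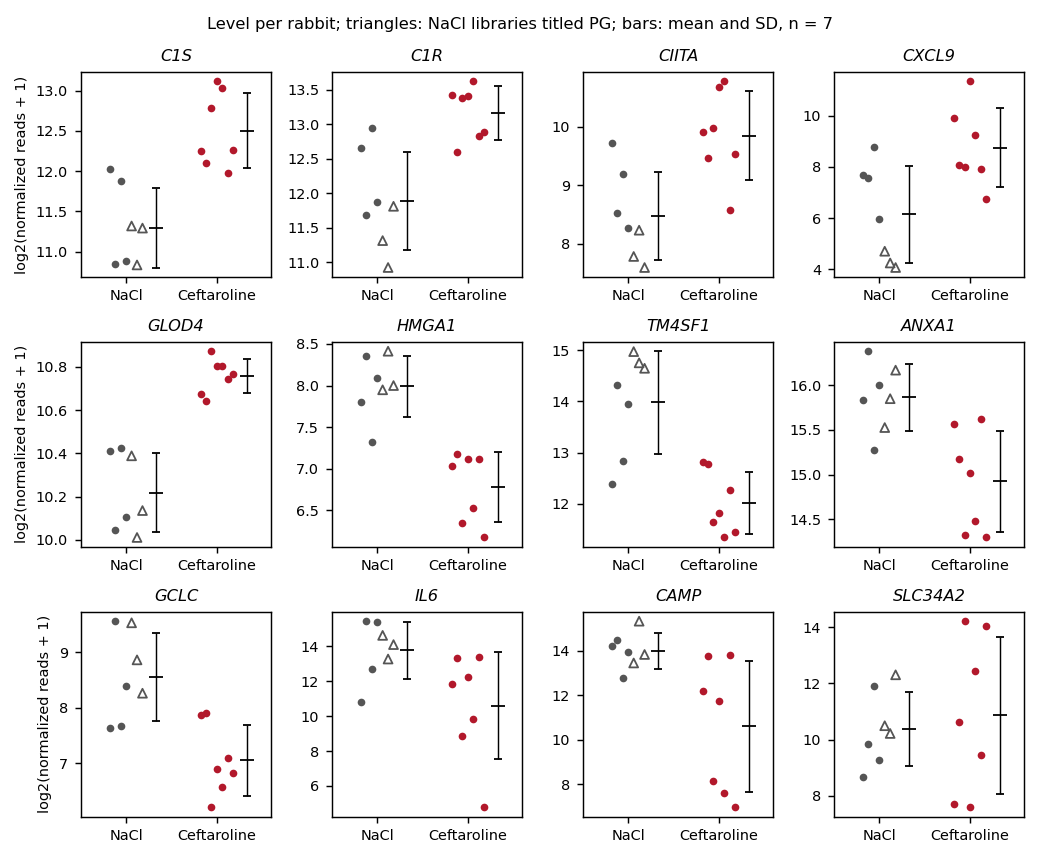
Level of 12 genes in each rabbit on the log2(normalized reads + 1) scale, NaCl at left and ceftaroline at right; triangles are the 3 NaCl libraries titled PG, and the bar gives the mean and SD of the 7 libraries. GLOD4 and HMGA1 do not overlap between groups, IL6 and CAMP spread widely within ceftaroline, and the PG libraries are lowest for CXCL9 and highest for TM4SF1.

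MHC class II genes had higher means. CIITA, the master regulator of MHC class II genes, was at 192 to 847 (median 307) in NaCl and 378 to 1755 (median 960.1) in ceftaroline, a log2 fold change of 1.37 (SE 0.37, limma adjusted p = 0.134, with 0.91 unmarked and 1.98 PG), and DESeq2 called it (adjusted p = 0.0222). All 7 ceftaroline libraries lay above the NaCl median, though NaCl replicates 1 and 6 reached into the ceftaroline range. Of 11 tested MHC class II genes 10 had a higher mean, 5 at an unadjusted p under 0.05, and the median was 0.63 (0.21 without the PG libraries, 1.10 against them). The list was uneven across rabbits. Its mean log2 level, relative to all libraries, was 1.02 and 0.97 in ceftaroline replicates 4 and 5 and -0.76 in replicate 6. It was -0.16 to 0.50 in the unmarked NaCl libraries and -0.94 to -0.79 in the PG libraries. RLA-DMB, a class II chaperone subunit, had a log2 fold change of 1.25 (SE 0.54, with 0.91 unmarked and 1.71 PG), HLA-DPA1 of 0.67 (SE 0.27), the class II transcription factor RFX5 of 0.63 (SE 0.26, with 0.22 unmarked and 1.19 PG), and CTSS, the protease that trims the invariant chain, of 0.94 (SE 0.43). CTSS was 0.20 against the unmarked NaCl libraries and 1.91 against the PG libraries, where limma called it (adjusted p = 0.0105). RLA-DR-ALPHA, a class II surface chain, stood at 0.49 (SE 0.31, with 0.21 unmarked and 0.86 PG). The class II genes are a family of similar sequences, so how reads were split among them is uncertain.

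Macrophage markers had a higher mean in 13 of 17, with a median of 0.56 (0.28 and 0.76 against the 2 kinds of NaCl library). At an unadjusted p under 0.05, 2 of the 17 were higher and 1 was lower, beside 9.9% and 8.4% of all tested genes. C1QC, a complement chain made by tissue macrophages, was at 449 to 3494 (median 655) in NaCl and 1030.2 to 3297 (median 1638) in ceftaroline, a log2 fold change of 1.13 (SE 0.42, limma adjusted p = 0.188, with 0.74 unmarked and 1.66 PG). NaCl replicate 1 alone stood above every ceftaroline library; without it the adjusted limma p was 0.0323. FABP4, the other member of this list picked by its p, went the other way, with the lowest log2 fold change of the list at -1.11. Every ceftaroline library other than replicate 2 lay below every NaCl library for FABP4. CD14, the lipopolysaccharide co-receptor of monocytes, did not follow C1QC either, at -0.41 (SE 0.48, with -1.10 unmarked and 0.51 PG). TLR2, the receptor for lipoproteins of Gram-positive bacteria, was at 1.19 (SE 0.46, with 0.52 unmarked and 2.07 PG). B and plasma cell markers had a higher mean in 12 of 12, with a median of 0.37 (0.18 unmarked and 0.81 PG). Only 1 of the 12 had an unadjusted p under 0.05, no more than the 9.9% of all tested genes higher at that p. BLNK, an adaptor of the B cell receptor, was at 0.85 (SE 0.32, with 0.47 unmarked and 1.35 PG).

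Interferon-induced genes differed between the kinds of NaCl library: their median log2 difference was -1.93 in PG over unmarked libraries. CXCL9, a chemokine induced by interferon gamma, was at 15.9 to 443 (median 61.1) in NaCl and 108 to 2607 (median 267) in ceftaroline, a log2 fold change of 2.60 (SE 0.83, limma adjusted p = 0.156). The PG libraries held the 3 lowest CXCL9 levels, and the log2 fold change was 1.25 without them and 4.41 against them. IFNG itself was at 0 to 185 (median 22) in NaCl and 4.26 to 441 (median 155) in ceftaroline, with a log2 fold change of 2.86 (SE 1.22) that rests on levels near the pseudocount in the PG libraries and was 0.68 unmarked and 5.77 PG. GBP1, an interferon-induced GTPase, was at 1.46 (SE 1.02) with -0.30 unmarked and 3.80 PG. All 11 tested interferon-induced genes had a higher mean with a median of 0.63, 1 of them at an unadjusted p under 0.05 (9.9% over all tested genes). That median was -0.28 against the unmarked and 1.83 against the PG libraries, so its direction depended on which NaCl libraries were used.

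Metalloproteases and their inhibitors had a median of -1.13 over 15 tested genes, of which 13 had a lower mean and 8 had an unadjusted p under 0.05. The median stayed near this value against both kinds of NaCl library (-0.96 and -1.11). ADAMTS4, an aggrecanase, was at 6915 to 57019 (median 27825) in NaCl and 126 to 26680.4 (median 13330.3) in ceftaroline, a log2 fold change of -2.87 (SE 1.07, limma adjusted p = 0.19, with -2.55 unmarked and -3.29 PG); it was chosen for naming after its values were seen. Ceftaroline replicates 7, 5 and 3 had the lowest ADAMTS4 levels, the same 3 as for neutrophil markers. ADAMTS1, which cleaves versican, was at 1269 to 4848 (median 2368) in NaCl and 665 to 2247 (median 1043) in ceftaroline (-1.13, SE 0.35); DESeq2 called it (adjusted p = 0.0346), and its log2 fold change was -0.54 unmarked and -1.90 PG. ADAMTS9 was at -2.02 (SE 0.73, with -1.48 unmarked and -2.72 PG). ADAMTS4 and ADAMTS9 had disease values of 9.39 and 6.35 and MSC values of -2.80 and -1.21.

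Genes of resolution and repair were mostly lower. ANXA1, annexin A1, a brake on neutrophil entry, was at 39674 to 85275 (median 59005) in NaCl and 20109 to 50475 (median 33071) in ceftaroline, a log2 fold change of -0.94 (SE 0.27, limma adjusted p = 0.137), and DESeq2 called it (adjusted p = 0.0253). All ceftaroline libraries were below the NaCl median, and the value was nearly the same against both kinds of NaCl library (-0.95 and -0.92). HBEGF, an epithelial growth factor, was at 888 to 6807 (median 5186) in NaCl and 299 to 4971 (median 638) in ceftaroline (-2.09, SE 0.61, with -1.82 unmarked and -2.46 PG). PTGS2, the inducible cyclooxygenase, was at -2.07 (SE 0.74). In this list 11 of 14 genes had a lower mean, 5 at an unadjusted p under 0.05, with a median of -0.76 (-1.04 unmarked and -0.26 PG). Within ceftaroline the list was lowest in replicates 3, 5 and 7, the libraries low in neutrophil markers, with levels relative to all 14 of -0.78, -0.73 and -1.84; the part of neutrophil content in it was not tested. Of 12 NF-kB feedback genes 11 had a lower mean, none at an unadjusted p under 0.05, and the median was -0.66 (-0.96 unmarked and -0.29 PG), or -0.32 without ceftaroline replicate 7. DUSP1, a phosphatase of MAP kinases, was at -1.04 (SE 0.50): it stood at 1713 to 1988 in ceftaroline replicates 3, 5 and 7 and at 8059 to 16209 in the other 4.

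GCLC, the rate-limiting enzyme of glutathione synthesis, was at 196 to 753 (median 335) in NaCl and 72.6 to 238 (median 119) in ceftaroline, a log2 fold change of -1.51 (SE 0.36, limma adjusted p = 0.121). Every ceftaroline library was below the NaCl median, and the overlap came from NaCl replicates 1 and 6 at the bottom of their group. HMOX1, heme oxygenase 1, had a log2 fold change of -1.41 (SE 0.43), which was -1.87 against the unmarked and -0.78 against the PG libraries. DESeq2 called both GCLC and HMOX1. The antioxidant list as a whole had a median of -0.07 (-0.40 unmarked and -0.01 PG), or 0.02 without NaCl replicate 2, with 4 of 14 members lower at an unadjusted p under 0.05 and none higher. GADD45G and CDKN1A, which hold the cell cycle in stressed cells, were at -1.42 (SE 0.39) and -1.03 (SE 0.33). Of 12 genes of growth arrest and p53 targets 8 had a lower mean, 5 at an unadjusted p under 0.05, and 1 was higher at that p; the median was -0.40 and nearly the same against both kinds of NaCl library (-0.39 and -0.46). DNAJB9, an endoplasmic reticulum chaperone, was at -0.78 (SE 0.23) and was called by DESeq2, and the co-chaperone BAG3 at -1.04 (SE 0.43).

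Cell cycle and fatty acid oxidation genes had slightly higher means with little disagreement among members. MCM2, a subunit of the replicative helicase, was at 85.8 to 324 (median 121) in NaCl and 178 to 495 (median 256) in ceftaroline, a log2 fold change of 0.99 (SE 0.29, limma adjusted p = 0.139); all 7 ceftaroline libraries lay above the NaCl median. MCM3, of the same complex, was at 0.74 (SE 0.24), and DESeq2 called both. Of 15 tested cell cycle genes 14 had a higher mean, 5 at an unadjusted p under 0.05, and the median was 0.37 (0.28 and 0.70 against the unmarked and the PG libraries). All 10 tested genes of fatty acid oxidation had a higher mean, 3 at an unadjusted p under 0.05, with a median of 0.37 (0.31 and 0.34). The mean log2 level of this list, relative to all libraries, was 0.47, 0.45 and 0.61 in ceftaroline replicates 3, 5 and 7. It was -0.25 to 0.08 in the other ceftaroline libraries and -0.45 to 0.12 in NaCl. ACADL, a long-chain acyl-CoA dehydrogenase, was at 1335 ± 324 in NaCl and 1909 ± 413 in ceftaroline (mean ± SD, n = 7), and CPT2, the inner carnitine palmitoyltransferase, at 254 ± 71.9 and 400.2 ± 128. In both genes all 7 ceftaroline libraries exceeded the NaCl median.

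Nuclear genes of oxidative phosphorylation had a higher mean in 13 of 15 with a median of 0.17 (0.08 unmarked and 0.32 PG), and NDUFB5, a complex I subunit, was at 0.32 (SE 0.12). SUCLG2, of the citric acid cycle, was at 0.39 (SE 0.11) and was called by DESeq2 (adjusted p = 0.0159). TWNK, the helicase of mitochondrial DNA, and MIEF1, a factor of mitochondrial fission, were lower, at -0.64 (SE 0.20) and -0.61 (SE 0.25, with -0.89 unmarked and -0.25 PG), while PINK1, the kinase that marks damaged mitochondria, was at 0.14 (SE 0.30) with -0.24 unmarked and 0.65 PG. The 14 genes of mitochondrial quality control and biogenesis had a median of 0.04 (-0.02 unmarked and -0.16 PG). Glycolysis had a lower mean in 10 of 12 with a median of -0.24, but -0.86 and 0.58 against the 2 kinds of NaCl library. HK2, a hexokinase, was at -0.07 (SE 0.21, with -0.42 unmarked and 0.39 PG).

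Values of structural cell markers turned on the PG libraries too. Smooth muscle and pericyte markers had a median of -0.68, which was 0.55 against the unmarked and -2.29 against the PG libraries; relative to all 14 libraries their mean log2 level was 0.59 to 1.89 in the PG libraries, -1.06 to -0.53 in the other NaCl libraries and -0.84 to 0.42 in ceftaroline. DES, the muscle filament desmin, was at -0.18 unmarked and -2.68 PG. Against the PG libraries alone limma called 6 of the 10 markers lower, beside 7.06% of all tested genes. PDGFRB, the pericyte receptor, was at 0.78 (SE 0.29, with 1.10 unmarked and 0.34 PG). Alveolar type I markers had a lower mean in 8 of 10, with a median of -0.60 (-0.14 unmarked and -0.92 PG). RTKN2 and SEMA3E, markers of those cells, were at -1.38 (SE 0.50, with -1.89 PG) and -0.64 (SE 0.33). The 5 tested type II markers had a median of 0.32 (0.56 unmarked and -0.14 PG), which was -0.05 without ceftaroline replicate 7, and SFTPB was at -0.24 (SE 0.62, with 0.37 unmarked and -1.05 PG). Endothelial markers had a median of -0.23 (0.03 unmarked and -0.49 PG), and of -0.42 to -0.09 with 1 library left out; SELP, the adhesion molecule of activated endothelium, was at -1.56 (SE 0.60) and TIE1, an endothelial receptor kinase, at 0.61 (SE 0.21). KIT, a receptor of mast cells and progenitors, was at 38.9 to 673 (median 195) in NaCl and 336 to 2653 (median 911) in ceftaroline (2.09, SE 0.62, with 1.48 unmarked and 2.91 PG) and was called by DESeq2, but the mast cell and basophil list had a median of -0.09 over 5 genes (-0.13 unmarked and 0.66 PG). CCL11, the eosinophil chemokine, was at -1.82 (SE 0.83, with -2.63 unmarked and -0.76 PG).

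**Figure D4:**
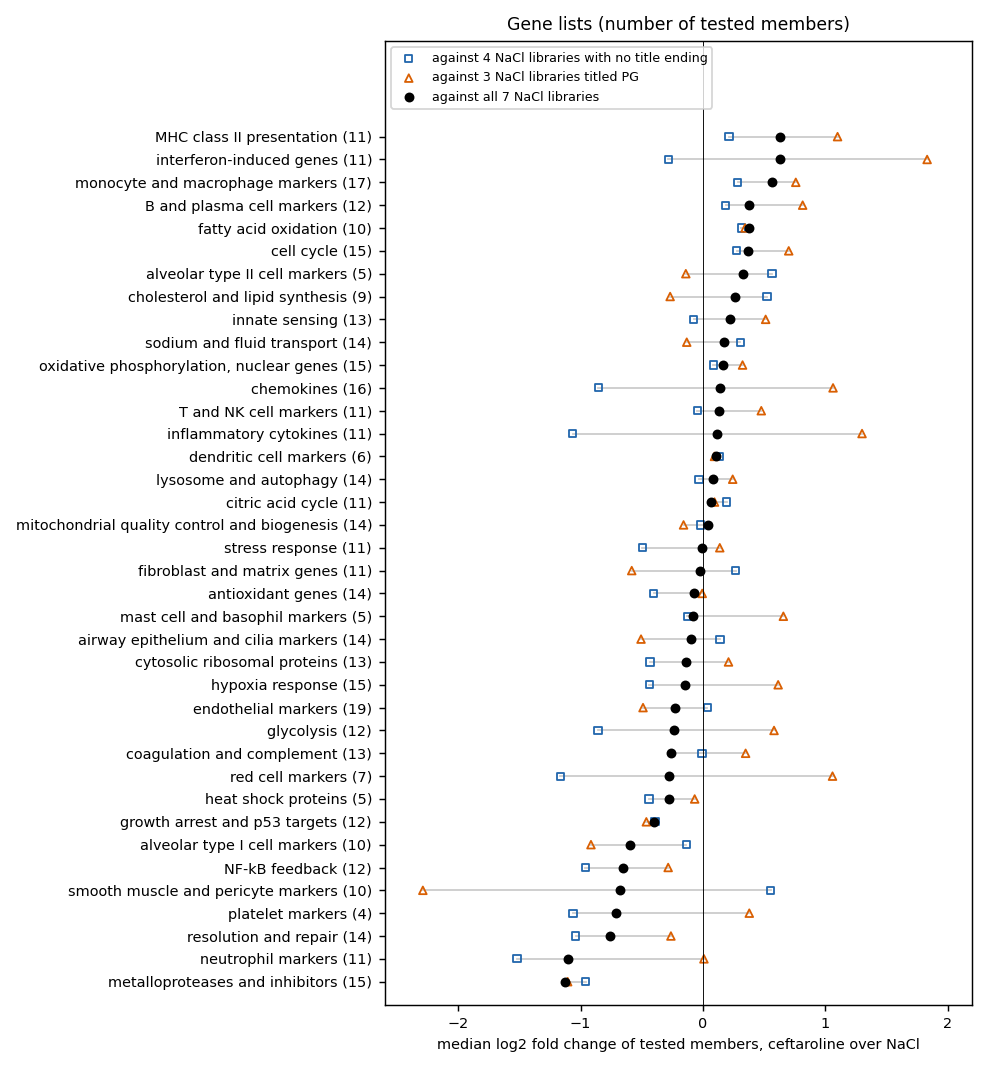
Median log2 fold change of the tested members of each of the 38 gene lists, ceftaroline over NaCl, against all 7 NaCl libraries (filled circles), the 4 without the PG ending (squares) and the 3 with it (triangles). Lists with short lines, such as metalloproteases, growth arrest and fatty acid oxidation, keep their value; smooth muscle, interferon and cytokine lists cross 0.

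Of the 38 lists, 15 had a median of 1 sign in all 3 comparisons, 8 of them above 0 and 7 below. Those above 0 included MHC class II, macrophage, B cell, cell cycle, fatty acid oxidation and oxidative phosphorylation lists. Those below 0 included metalloproteases, resolution and repair, NF-kB feedback, growth arrest, heat shock, antioxidant and alveolar type I lists. Without NaCl replicate 1, limma called 3 of 13 coagulation and complement genes and 2 of 17 macrophage markers higher. Also called higher were 1 of 11 MHC class II genes and 1 of 15 cell cycle genes. In the repair, antioxidant and mitochondrial quality control lists, 1 of 14 genes each was called lower. The other lists had no call. Over all 9614 tested genes, 1.1% were called higher and 0.863% lower, so these few calls are given as values only. C1S, C1R, C1QC, CIITA, MCM2, HBEGF and GCLC were among the called list members, with adjusted p from 0.0263 (C1S) to 0.0428 (HBEGF). The 3 comparisons share the ceftaroline libraries and, in part, the NaCl libraries, so an equal sign is a description of these libraries. The plot of list levels by library shows that ceftaroline replicate 7 had the lowest level of the neutrophil, cytokine, NF-kB feedback, metalloprotease and repair lists.

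**Figure D5:**
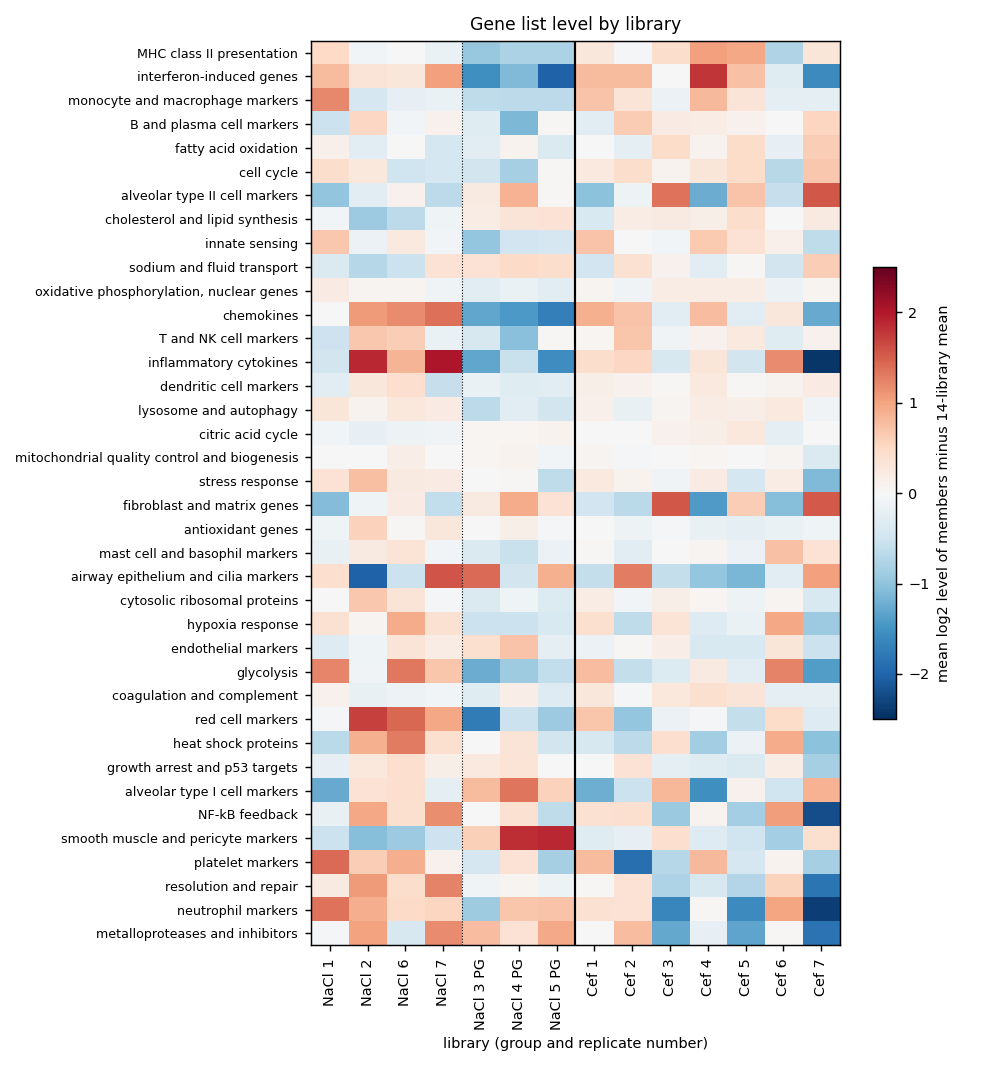
Mean log2 level of the tested members of each list in each library, minus the mean over the 14 libraries (colour scale, red high and blue low); rows are the lists and columns the libraries, with NaCl left of the solid line and its PG libraries right of the dotted line. Within ceftaroline, replicates 3, 5 and 7 are low for neutrophil markers and metalloproteases, and the PG libraries are low for interferon-induced genes and high for smooth muscle markers.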

How the data were processed

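Lung RNA of 7 NaCl and 7 ceftaroline rabbits was sequenced, a library for each animal. Stranded mRNA libraries gave single reads of 75 bp, which were demultiplexed by bcl2fastq2 (2.18.12) before trimming by Cutadapt (1.15), per the labels' protocols. The tools DESeq2 1.24.0, featureCounts 1.5.2 and TopHat2 2.1.1 stand in the submitters' processing notes without a stated role. Genome build and annotation: not given in the sources used here, and gene identifiers are used as deposited. The values the authors deposited are a signal per gene and library, reads divided by the library's size factor. The authors' deposited fold changes and p-values were not used.

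Every value was a whole multiple of its library's step within 1e-06, which gave back whole reads; the library whose step is near 1 took its reads from the table of the ceftaroline plus MSC comparison. Genes with at least 10 in at least 7 libraries were tested, two-sided, with limma 3.58.1 (R 4.3.3) on log2(level + 1) with an intensity trend and no covariate, and Benjamini-Hochberg adjustment over all of them. Fold changes understate the change of low genes. edgeR 4.0.16 and DESeq2 1.42.0 were run on the recovered reads. These tests were also run on simulated counts, which held no split within NaCl like that of the PG libraries. That run cannot show how the tests behave with such a split. Of 23669 genes, 10561 were listed at 0 in all 14 libraries.

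The comparison, the 38 gene lists and the rule for naming were chosen with earlier results of these data known. Of 801 list genes 581 were in the table by symbol and 436 were tested. Named were the 12 genes with the lowest p in each direction (symbol and mean of at least 50), the 2 lowest-p members per list, and a panel of which 15 genes were tested, though not every one is given and some are not reported here. HLA-DPA1, RLA-DMB, RLA-DR-ALPHA and ADAMTS4 are given as further list members. Replicate numbers are those of the titles; they do not pair the groups by any label. Chi-square per degree of freedom was 77.3 or more for every pair of libraries within a group, where copies of a library would give about 1.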

Additional observations from a re-analysis of the deposited data

Results flagged for a closer look

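Examined were 164 groups of 7 values, made of reads per library and 81 of the named genes in each group. Of these, 11 held a library that stood far from the other 6, by a gap past Dixon's 95% limit. By chance about 5% of groups are flagged. In NaCl, replicate 1 was the lone library in 5 of them: it was highest for C1QC (3494, next 1017), DENND6A (579.9, next 345), MCM3 (494, next 336) and RLA-DMB (8034, next 2395), and lowest for HBEGF (888, next 3778). NaCl replicate 2 was highest for CDKN1A (2495, next 1763), NaCl replicate 3 lowest for S100A8 (65790, next 229974), and NaCl replicate 5 had the most reads (14948358, next 10729707). In ceftaroline, replicate 6 was lowest for NLE1 (84.5, next 123), and replicate 7 was lowest for RRP9 (433, next 796) and TNF (64.0, next 462). Without NaCl replicate 1 the adjusted limma p was 0.0323 for C1QC, 0.0112 for DENND6A and 0.0428 for HBEGF, against 0.188, 0.12 and 0.137 with it. MCM3 and RLA-DMB were not called by limma without that library, where MCM2 and CIITA were the only calls of their lists.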

How the results depend on the processing

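The count of 0 genes called became 501 with DESeq2, 2 with array weights and 1314 without the 4 unmarked NaCl libraries, an alternative added after seeing the data; it ran from 0 to 189 when 1 library was left out. It was 0 with the replicate block on title numbers, with edgeR, at other pseudocounts and filters, after quantile normalization and without the 3 PG libraries. Genes with no overlap rose from 37 to 290 without the PG libraries, with fewer samples. The title numbers gave correlations of -0.35 to 0.24 between same-numbered deviations, and 1 of 7 numbers matched its own best, so the block is a number only. Over 81 of the named genes and their alternatives, 2055 of 2186 values kept their direction and side. A call was gained by 101, and 30, in 10 genes, changed sign. The cause was not tested. Without the PG libraries, GBP1 was at -0.30, PINK1 at -0.24, SFTPB at 0.37 and TNF at -1.06. Without the 4 unmarked libraries, CD14 was at 0.51, CSF3 at 0.34, HK2 at 0.39, IL10 at 1.11, IL1B at 0.39 and SLC34A2 at -0.14. Quantile normalization gave HK2 0.10 and SFTPB 0.31. edgeR and DESeq2 gave IL10 0.82 and 0.84, SFTPB 0.15 and 0.10, and TNF -0.56 and -0.57. Leaving out 1 library moved HK2 from -0.17 to 0.025, IL10 from -1.0 to 0.081, SFTPB from -0.55 to 0.037, SLC34A2 from -0.080 to 1.03 and TNF from -0.23 to 0.75. Of the 38 list medians 11 changed sign without the PG libraries. Depth was higher in ceftaroline, which limits comparisons of low genes.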
